A study of Homo sapiens with 4 samples.

Results

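The 9 genes described here carry or restrain bone morphogenetic protein (BMP) signalling and were measured in H1 cells, a human embryonic stem cell line, 2 days into differentiation towards blood, with the Wnt inhibitor IWP2 or with DMSO. They were chosen by gene symbol and comprised the type I receptors ACVR1, BMPR1A and BMPR1B, the type II receptor BMPR2, the receptor-regulated SMADs SMAD1, SMAD5 and SMAD9, the inhibitory SMAD6 and the pseudoreceptor BAMBI. All 9 were found, with 1 row each, among 58365 gene rows and 56595 gene symbols. Every culture received 40 ng/ml activin A and 50 ng/ml BMP4 for 2 days according to the sample labels, while the study's methods give these amounts the other way round. The DMSO group (DMSO-1 and DMSO-2) had no IWP2, and the IWP2 group (IWP2-1 and IWP2-2) had the inhibitor, which blocks the acylation of Wnt proteins that their secretion requires. The design thus asks how BMP pathway genes stood when endogenous Wnt secretion was blocked and both inducing factors were still supplied. It rests on 1 cell line, 1 time point and 2 libraries per group, and the labels do not say whether the libraries came from separate cultures, so the p-values measure only the spread between these libraries.

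BMP ligands bind pairs of type I and type II serine/threonine kinase receptors. The type II receptor phosphorylates the type I receptor, which phosphorylates SMAD1, SMAD5 and SMAD9, and these enter the nucleus with SMAD4 to act on target genes. SMAD6 and BAMBI are themselves induced by BMP signalling and restrain it, SMAD6 inside the cell and BAMBI at the membrane, where it resembles a type I receptor but has no kinase domain. In the embryo BMP4 takes part in forming mesoderm, and it is used for the same purpose in cultured stem cells.

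Values are FPKM, fragments scaled by transcript length and by library, so levels of different genes can be set side by side. A gene was tested when it reached 1 FPKM in at least 2 of the 4 libraries, which left 14267 genes. Differences are log2 fold changes on log2(FPKM + 1), IWP2 against DMSO, with their standard error (SE), from limma with Benjamini-Hochberg adjustment over all genes tested. The threshold was an adjusted p of 0.05. Of the genes tested, 1035 rose and 1290 fell with IWP2, 2325 in all. Without IWP2-1 the total was 705 and without IWP2-2 it was 747, and without DMSO-1 the number that fell was 802. Total depth was unknown, but the spacing of low values gave the depths relative to DMSO-1 as 0.893 for DMSO-2, 1.10 for IWP2-1 and 0.943 for IWP2-2.

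With IWP2, SMAD6 fell, BMPR1A and BAMBI rose, and 5 other members did not pass the test. Of the 9 members, 8 were tested and all 8 were above 1 FPKM in every library, whereas BMPR1B was below 1 FPKM in every library. The 3 calls became 2 without DMSO-1, 1 without DMSO-2, 0 without IWP2-1 and 1 without IWP2-2. The 3 calls among 8 stood beside 16.3% of all genes tested. Among all genes tested, 7.25% rose and 9.04% fell. The FPKM ranges of the groups did not overlap for 6 of the 8 members, 2 higher and 4 lower with IWP2. Among all genes tested, 60.2% did not overlap (28.1% higher and 32.1% lower), and the difference from that share was not tested. The median log2 fold change was -0.10 over the 8 members and -0.016 over all genes tested.

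**Figure D1:**
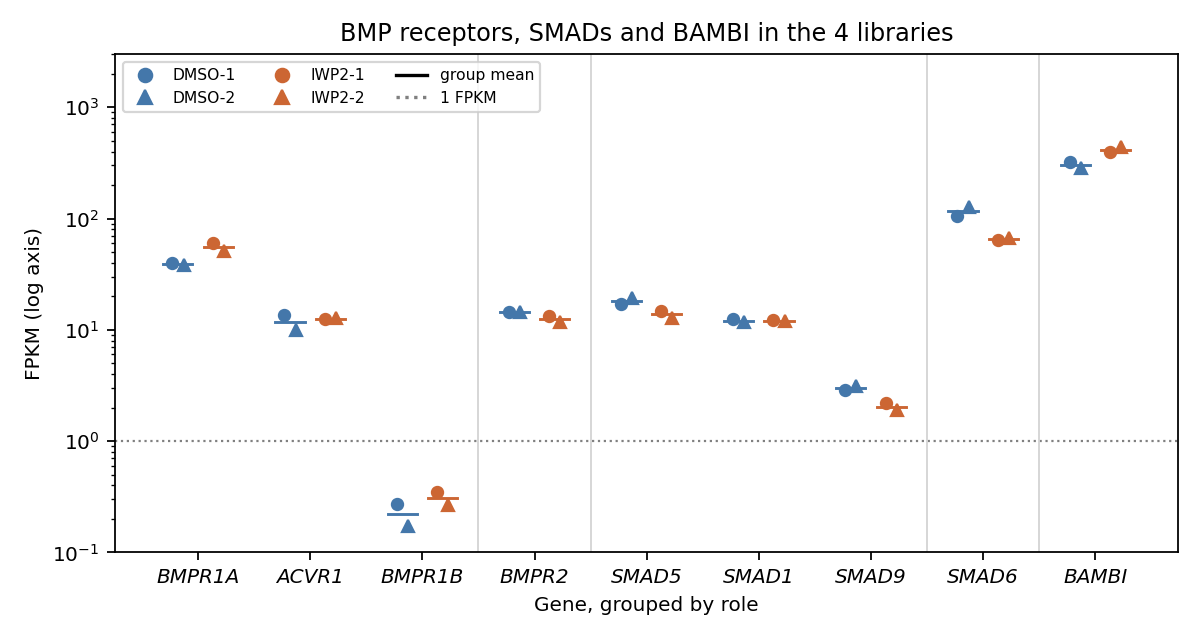
FPKM on a log axis for each of the 9 genes, grouped by role, with 1 point per library (circles for replicate 1, triangles for replicate 2), blue for DMSO, orange for IWP2, short lines for group means and a dotted line at 1 FPKM. BAMBI and SMAD6 lie highest, BMPR1B lies below 1 FPKM in all 4 libraries, and SMAD6 is lower and BMPR1A and BAMBI are higher in both IWP2 libraries.

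The members spanned a wide range of levels. In DMSO the order of mean FPKM was BAMBI (302 ± 25.2, SD, n = 2), SMAD6 (116 ± 14.3), BMPR1A (39.3 ± 1.19), SMAD5 (18.2 ± 1.67), BMPR2 (14.5 ± 0.0896), SMAD1 (12.1 ± 0.603), ACVR1 (11.8 ± 2.49), SMAD9 (3.02 ± 0.199) and BMPR1B (0.222 ± 0.0697). Of the neighbours in this order, SMAD1 and ACVR1 did not differ beyond their spread. The 2 genes that restrain the pathway were therefore the most abundant of the set, above every receptor and every receptor-regulated SMAD. With IWP2 the 3 highest and the 2 lowest genes kept their places. Between them SMAD5 (13.8 ± 1.37), ACVR1 (12.6 ± 0.166), BMPR2 (12.5 ± 1.08) and SMAD1 (12.1 ± 0.314) drew together, and the ranges of SMAD5 and BMPR2, of ACVR1 and BMPR2, and of SMAD1 and BMPR2 overlapped.

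Among the type I receptors, BMPR1A was the most abundant and the only one called, BMPR1B being untested. BMPR1A (ENSG00000107779.13, chr10:86756601-86932838 of GRCh38, plus strand) encodes the receptor also known as ALK3, which mediates BMP2 and BMP4 signals in the early embryo. Its FPKM was 40.2 in DMSO-1, 38.5 in DMSO-2, 60.5 in IWP2-1 and 51.3 in IWP2-2. Both IWP2 libraries lay above both DMSO libraries, and the mean was 1.42 times as high. The log2 fold change was 0.49 (SE 0.11, 95% interval from 0.22 to 0.76, limma adjusted p = 0.0366). The rise did not pass the threshold when any 1 of the 4 libraries was left out, with log2 fold changes from 0.37 (without IWP2-1) to 0.61 (without IWP2-2) and limma adjusted p from 0.0659 to 0.183. It was also lost without the filter on low values (0.135) and without the variance trend (0.0700), so that it passed in 5 of 11 alternatives, with limma adjusted p from 0.0304 to 0.183. Both processed copies of the gene listed beside it, BMPR1APS1 and BMPR1APS2, stayed under 1 FPKM in every library.

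ACVR1 (ENSG00000115170.13, chr2:157736444-157875862, minus strand), the type I receptor also called ALK2, was measured at 13.6 FPKM in DMSO-1, 10.1 in DMSO-2, 12.4 in IWP2-1 and 12.7 in IWP2-2. The IWP2 values fell between the DMSO values, which were the most widely separated replicate pair among the 8 tested members, at 0.40 on the log2(FPKM + 1) scale against a median of 0.16 over all genes tested. The log2 fold change was 0.09 with a 95% interval from -0.30 to 0.49 (limma adjusted p = 0.738), and it was -0.10 without DMSO-2 and 0.29 without DMSO-1. BMPR1B (ENSG00000138696.10, chr4:94757968-95158448, plus strand), or ALK6, was at 0.271 and 0.173 FPKM in DMSO and 0.352 and 0.267 FPKM with IWP2. These ranges overlapped. In the fit without the filter its log2 fold change was 0.10 (95% interval from -0.12 to 0.32, limma adjusted p = 0.57). The IWP2 mean was 1.39 times the DMSO mean, a ratio that adding 1 to FPKM shrinks at such low values. The fit therefore does not show that BMPR1B was unchanged. Summed over the 3 type I genes, BMPR1A made up 74.4% and 79.0% of the FPKM in DMSO and 82.6% and 79.9% with IWP2.

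BMPR2 (ENSG00000204217.13, chr2:202376936-202567751, plus strand), the type II receptor dedicated to BMP ligands, did not rise with BMPR1A. It was at 14.5 and 14.6 FPKM in the DMSO libraries, 13.2 in IWP2-1 and 11.7 in IWP2-2. The IWP2 values were both lower, but the log2 fold change of -0.21 (SE 0.11, 95% interval from -0.48 to 0.069) did not pass the test (limma adjusted p = 0.27). It was -0.29 without IWP2-1 and -0.13 without IWP2-2. The ratio of BMPR1A to BMPR2 within a library was 2.78 and 2.64 in DMSO and 4.58 and 4.38 with IWP2. The difference between the responses of these 2 genes was not tested.

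The receptor-regulated SMADs were not called in either direction, and differences between their responses were not tested. SMAD1 (ENSG00000170365.9, chr4:145481194-145558079, plus strand) had 12.5 and 11.7 FPKM in DMSO and 12.3 and 11.9 FPKM with IWP2. Its values interleaved, and the 95% interval of the log2 fold change ran from -0.27 to 0.26 (limma adjusted p = 0.996). SMAD5 (ENSG00000113658.16, chr5:136132845-136188747, plus strand) had 17.0 and 19.4 FPKM in DMSO against 14.7 and 12.8 FPKM with IWP2. Both IWP2 libraries were lower, at 75.6% of the DMSO mean. The log2 fold change was -0.38 (SE 0.12, 95% interval from -0.69 to -0.070, limma adjusted p = 0.102).

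SMAD9 (ENSG00000120693.13, chr13:36844831-36920765, minus strand), formerly SMAD8, was the least abundant of the receptor-regulated SMADs. It had 2.88 and 3.16 FPKM in DMSO against 2.18 and 1.90 FPKM with IWP2. The log2 fold change was -0.40 (SE 0.15, limma adjusted p = 0.143), again with no overlap between groups and no call. The IWP2 mean was 67.6% of the DMSO mean. Adding 1 to FPKM shrinks the fold change at such low levels, and with 0.1 added it was -0.55. The 3 genes together summed to 32.4 and 34.2 FPKM in DMSO and 29.2 and 26.6 FPKM with IWP2. Within that sum SMAD5 made up 52.5% and 56.6% in DMSO and 50.4% and 48.2% with IWP2, and SMAD9 made up 8.86% and 9.22% in DMSO and 7.46% and 7.13% with IWP2.

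**Figure D2:**
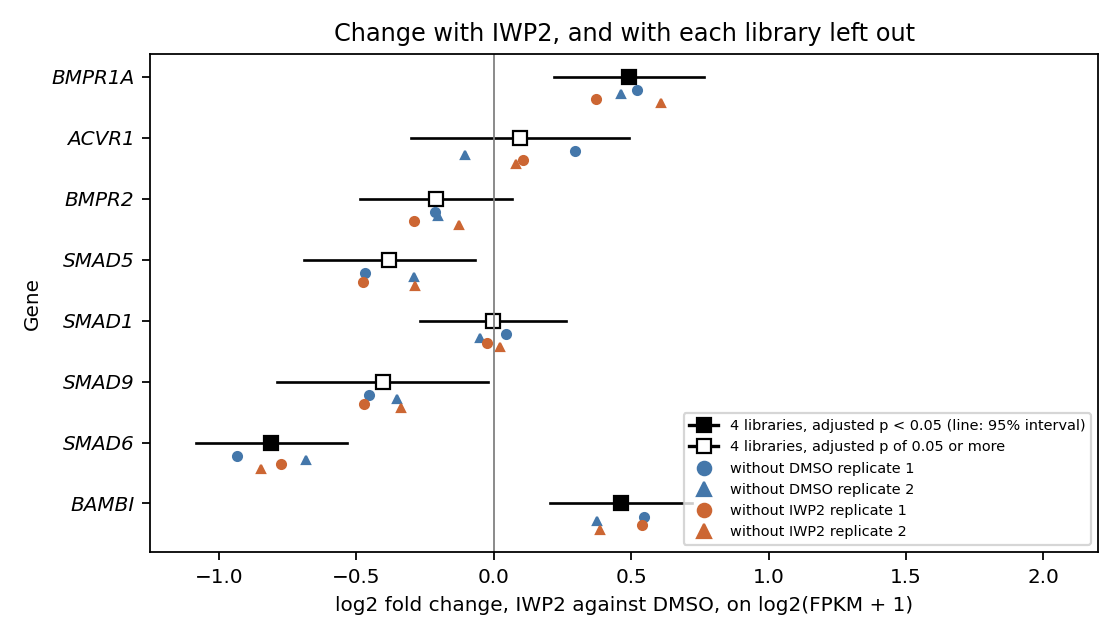
Log2 fold change of the 8 tested members, IWP2 against DMSO, on log2(FPKM + 1); squares with lines are the estimates from 4 libraries with their 95% intervals (filled where the adjusted p was below 0.05), and the small points below are the estimates with 1 library left out. SMAD6 lies farthest from 0, at -0.81, and stays negative in every point, whereas the points of SMAD1 and ACVR1 fall on both sides of 0.

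SMAD6 had the largest change of the set. The gene (ENSG00000137834.14, chr15:66702228-66782848, plus strand) encodes an inhibitor that binds activated type I receptors and competes with SMAD4 for SMAD1. Its FPKM was 106 in DMSO-1, 126 in DMSO-2, 64.0 in IWP2-1 and 67.4 in IWP2-2. The groups were well separated, and the DMSO mean was 1.77 times the IWP2 mean. The log2 fold change was -0.81 (SE 0.11, 95% interval from -1.08 to -0.53, limma adjusted p = 0.00884). It ranged from -0.93 to -0.68 with 1 library left out, and the call was lost without IWP2-1 (limma adjusted p = 0.0655) and without the filter (0.0788), against a range from 0.00681 to 0.0788 over all 11 alternatives. An unnamed sense intronic transcript in the same locus, AC013564.1, reached at most 1.70 FPKM, and no other gene annotated in GENCODE 29 across a member locus was higher.

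BAMBI changed in the opposite direction. The gene (ENSG00000095739.10, chr10:28677342-28682939, plus strand) is compact, with 3 exons and a coding length of 780 bases in its GENCODE 29 transcript of longest coding sequence, against 1596 bases in BMPR1A. Its FPKM was 320.0 in DMSO-1, 284 in DMSO-2, 395 in IWP2-1 and 439 in IWP2-2. Both IWP2 values were above both DMSO values, with a mean 1.38 times as high. The log2 fold change was 0.46 (SE 0.10, 95% interval from 0.20 to 0.72, limma adjusted p = 0.0372). Without DMSO-2, IWP2-1 or IWP2-2 the rise did not pass the threshold, with limma adjusted p of 0.116, 0.0973 and 0.180, and it did without DMSO-1 (0.0461). It was also lost without the filter (0.148) and without the variance trend (0.0766), and over all 11 alternatives the limma adjusted p ranged from 0.0302 to 0.180.

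The pair of inhibitors thus shifted against each other. BAMBI over SMAD6 was 3.01 and 2.25 in the DMSO libraries and 6.16 and 6.51 in the IWP2 libraries. SMAD6 relative to the summed receptor-regulated SMADs was 3.27 and 3.69 in DMSO and 2.19 and 2.54 with IWP2. BAMBI relative to the summed type I receptors was 5.92 and 5.83 in DMSO and 5.38 and 6.83 with IWP2, ranges that overlapped. These ratios are given as a description, and their differences between groups were not tested.

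**Figure D3:**
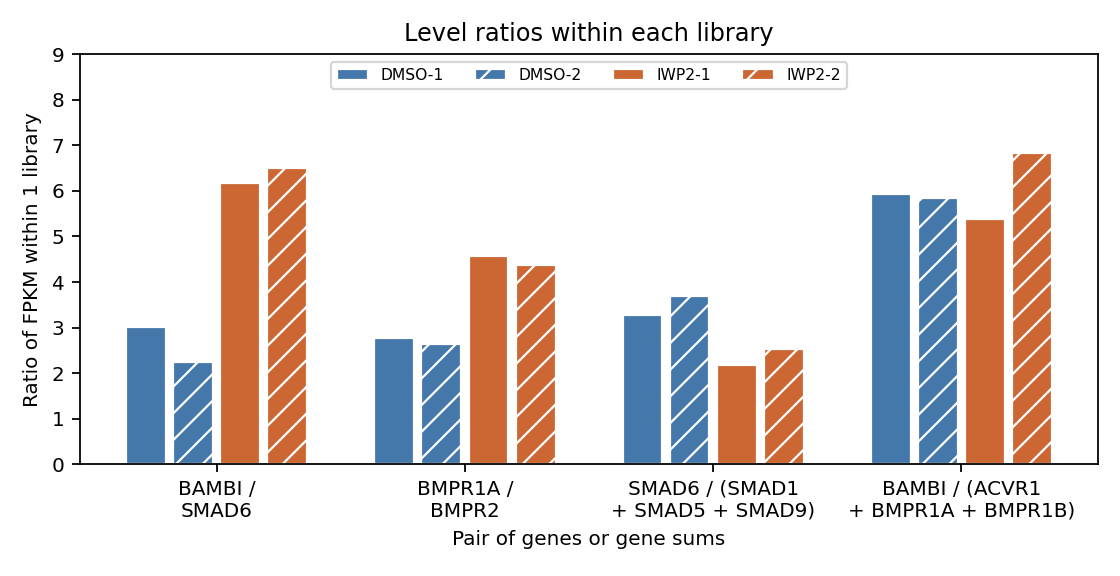
Ratio of FPKM within each library for 4 pairs of genes or gene sums, with 1 bar per library, blue for DMSO, orange for IWP2, plain for replicate 1 and hatched for replicate 2. BAMBI over SMAD6 lies between 2.25 and 3.01 in DMSO and between 6.16 and 6.51 with IWP2, whereas BAMBI over the summed type I receptors overlaps between the groups.

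The promoters of these 2 inhibitors are shown because both genes are known targets of BMP-activated SMADs. They differ in the SMAD motifs near their starts, and a link between these motifs and the direction of response was not tested. The windows run from base -250 to base 49 relative to the RefSeq start, counted as 0, in GRCh38.p14, plus strand for both, at chr15:66701986-66702285 for SMAD6 and chr10:28677271-28677570 for BAMBI. Capitals mark matches to GTCTAGAC, the palindromic SMAD binding site, or to GGCGCC, a GC-rich element bound by BMP-activated SMADs, each of which reads the same on both strands.
SMAD6: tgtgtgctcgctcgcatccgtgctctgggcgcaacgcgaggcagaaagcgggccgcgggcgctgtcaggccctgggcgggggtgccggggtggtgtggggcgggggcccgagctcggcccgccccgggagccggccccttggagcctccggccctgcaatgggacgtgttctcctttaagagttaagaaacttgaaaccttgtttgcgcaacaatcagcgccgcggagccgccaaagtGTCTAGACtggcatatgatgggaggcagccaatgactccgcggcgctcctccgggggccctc
BAMBI: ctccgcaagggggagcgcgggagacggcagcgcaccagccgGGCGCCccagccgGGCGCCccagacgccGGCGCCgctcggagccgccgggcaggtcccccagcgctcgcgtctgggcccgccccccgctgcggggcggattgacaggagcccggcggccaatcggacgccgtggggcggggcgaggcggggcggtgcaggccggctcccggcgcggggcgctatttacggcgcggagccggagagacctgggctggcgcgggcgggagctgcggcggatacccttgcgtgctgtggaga

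The SMAD6 window held GTCTAGAC once, with its first base at -12 from the start, and no GGCGCC. The BAMBI window held GGCGCC 3 times, at -209, -196 and -181, and no GTCTAGAC. Over all 35116 RefSeq promoter windows of the same length, 0.202% held GTCTAGAC and 19.2% held GGCGCC. All 9 members had an entry, with 17 windows in all, of which 1 held GTCTAGAC and 6, from 5 genes, held GGCGCC. The TCF/LEF motif CTTTGAT, searched on both strands and found in 2.62% of all windows, was in none of the 17. Only these exact letters were searched, and at that share 17 windows are too few to show that TCF/LEF sites were missing. These motifs were chosen after the windows had been read, and a match is a description of the letters only.

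The genes whose 4 values lay closest to SMAD6 and BMPR1A are given as a description over 4 libraries. These members had the largest changes on log2(FPKM + 1). With 0.1 in place of the added 1, the change of SMAD9 (-0.55) was larger than that of BMPR1A (0.50). By Euclidean distance between log2(FPKM + 1) values centred on their mean, FAM53B (distance 0.041), FHL1 (0.054) and TAGLN3 (0.058) were nearest to SMAD6, with log2 fold changes of -0.84, -0.86 and -0.75. TRPM4 (0.027), MROH1 (0.039) and TRIM26 (0.048) were nearest to BMPR1A, with log2 fold changes of 0.47, 0.48 and 0.46.

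The fold changes of other pathway genes, from lists chosen for their known roles, spread over a wider range than those of the receptors and SMADs. A gene is said to rise or fall where its limma adjusted p was below 0.05, and some passed the filter through only 1 group, so that the counts are descriptions. Of 14 BMP ligand genes only 3 were tested, and all 3 changed. BMP2 fell from 101 and 122 FPKM to 4.55 and 4.52 FPKM (log2 fold change -4.34, SE 0.12). BMP4, also supplied as protein in both groups, fell from 171 and 193 FPKM to 68.8 and 66.0 FPKM (-1.42, SE 0.093). BMP7 rose from 3.51 and 3.96 FPKM to 11.4 and 9.58 FPKM (1.28, SE 0.14). The limma adjusted p of the ligands was 0.00514 or lower.

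Of 15 secreted antagonists, which bind BMPs or related ligands outside the cell, 12 were tested, 1 rose, 3 fell and 8 did not pass. CER1 (Cerberus) fell from 1612 and 2048 FPKM to 38.6 and 34.2 FPKM, and BMPER, a BMP-binding regulator of endothelial cells, fell from 59.2 and 74.2 FPKM to 2.56 and 1.65 FPKM. FST (follistatin), an activin-binding protein, fell by 1.86 on the log2 scale, and CHRDL1 rose by 1.12. FSTL1 (log2 fold change 0.64) and NOG, encoding the BMP trap noggin (0.03), were the most abundant of those not called.

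Of 14 other receptors and co-receptors of the TGF-β superfamily, 10 were tested, none rose and 3 fell. ACVRL1 (ALK1), a type I receptor of endothelial cells for circulating BMPs, fell from 3.73 and 4.16 FPKM to 0.295 and 0.305 FPKM. ACVR2A, a type II receptor that BMPs share with activin, fell by 0.90, and TGFBR1, the type I receptor for TGF-β, fell by 0.96 on the log2 scale. NEO1, a receptor for repulsive guidance molecules (-0.03), and ACVR1B, the activin type I receptor (-0.33), were the most abundant that did not pass. Of 19 SMAD partners and regulators, all tested, 2 rose, 1 fell and 16 did not pass. SMAD2, which transmits activin rather than BMP signals, fell from 51.7 and 45.5 FPKM to 30.8 and 31.7 FPKM, with a log2 fold change of -0.62 (SE 0.099). PMEPA1, a TGF-β-induced inhibitor, rose by 0.42, and ZNF423, a zinc finger partner of BMP-activated SMADs, rose by 0.73. FKBP1A, the immunophilin that binds type I receptors (-0.008), and STUB1, a ubiquitin ligase (-0.09), were not called. Outside the naming rule, and named after their values were seen, the shared partner SMAD4 had a log2 fold change of -0.05 and the inhibitor SMAD7 one of -0.35, neither of them called.

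Of 18 BMP target genes, which include SMAD6 and BAMBI, 16 were tested, and they divided into 4 that rose, 4 that fell and 8 that did not pass. ID1, a dominant-negative partner of basic helix-loop-helix factors, rose from 789 and 644 FPKM to 1772 and 2137 FPKM (log2 fold change 1.45, SE 0.15). Outside the naming rule, and named after their values were seen, the other targets that rose beside BAMBI were ID3, by 1.01, and ID4, by 1.24. The homeobox gene MSX1 fell from 36.3 and 29.6 FPKM to 1.04 and 1.23 FPKM. TBX3 and HAND1, which encode transcription factors of mesoderm and its derivatives, fell by 2.65 and 1.32 on the log2 scale. ID2 (0.44) and MSX2 (-0.12) were the most abundant targets that were not called. The median log2 fold changes of the lists of tested genes were -1.42 for ligands, -0.18 for antagonists, -0.30 for other receptors, -0.054 for regulators and -0.16 for targets.

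**Figure D4:**
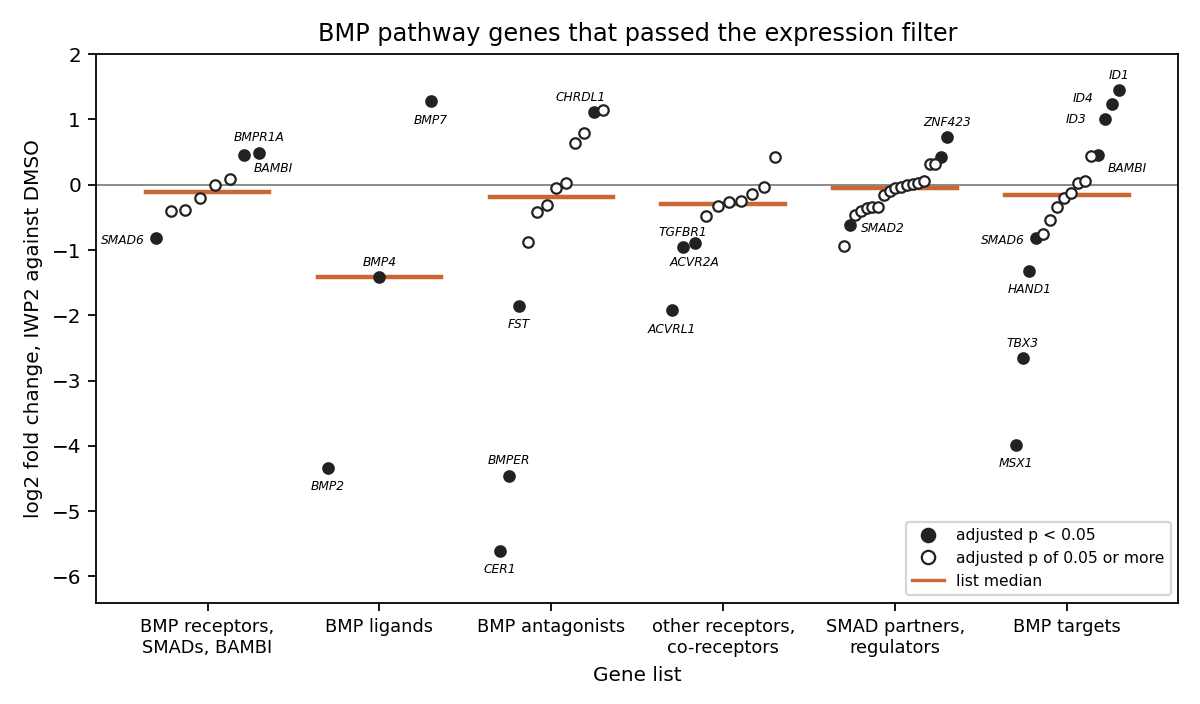
Log2 fold change of each tested gene, IWP2 against DMSO, in 6 lists, with filled points for an adjusted p below 0.05, open points for the others and orange lines for list medians. The receptors, SMADs and BAMBI lie between -0.81 and 0.49, whereas ligands, antagonists and targets reach from -5.60 to 1.45.

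Markers of cell state moved along with these genes. The orders within the marker lists are on log2(FPKM + 1), and for genes near 0 in a group they depend on the added 1. By the ratio of mean FPKM, DMSO over IWP2, the Wnt target LGR5 (271) exceeded SP5 (135). Among mesoderm markers MESP1 (370) exceeded APLNR (166), and MESP2 (84.7) exceeded GATA4 (20.0). Of 10 Wnt target genes 8 fell and none rose, led by SP5 (-5.22), LGR5 (-4.54) and DKK1 (-4.24), and their summed FPKM was 205 and 214 in DMSO and 31.0 and 30.5 with IWP2. Of 12 mesoderm markers 11 were tested and all 11 fell, led by APLNR (-6.91), MESP1 (-5.70) and GATA4 (-3.97), with sums of 1247 and 1577 FPKM against 192 and 212 FPKM. APLNR, a surface marker of mesoderm, was the most abundant in DMSO and HAND1 with IWP2, and MSGN1 was listed at 0 in both IWP2 libraries. Of 9 pluripotency markers 6 rose and 1 (TDGF1) fell. SOX2 rose from 0.193 and 0.174 FPKM to 35.6 and 36.1 FPKM, PRDM14 rose by 1.72 and POU5F1, the most abundant, rose by 1.50, with sums over the list of 1455 and 1284 FPKM in DMSO and 2630 FPKM in both IWP2 libraries.

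Of 7 endoderm markers 6 were tested and 5 fell, led by CER1 (-5.60), GSC (-4.36) and FOXA2 (-2.18), with CER1 the most abundant in DMSO, SOX17 the most abundant with IWP2, and sums of 1818 and 2204 FPKM against 123 and 135 FPKM. Of 12 amnion and trophoblast markers, genes that BMP can induce in stem cells, 8 were tested, 4 rose and 1 fell. CDX2 fell by 2.42, KRT7 rose by 2.10 and TFAP2A by 1.22, and the sums, with GATA3 the most abundant in DMSO and TFAP2C with IWP2, were 105 and 86.7 FPKM against 140 and 147 FPKM. Of 6 neuroectoderm markers 2 were tested and both fell, OTX2, the most abundant, by 4.07 and ZNF521 by 3.69, with sums of 76.0 and 98.5 FPKM against 4.59 and 4.05 FPKM. Of the other 4, named after their values were seen, SOX1, LHX2 and SIX3 were under 1 FPKM in every library. Each had a higher mean with IWP2, with overlapping ranges for SOX1 and LHX2. PAX6 was at 1.33 and 0.646 FPKM in DMSO and 0.0838 and 0.0278 FPKM with IWP2, too low to be tested. The sums thus came mostly from OTX2 and ZNF521 and do not show that neuroectoderm cells were present in DMSO or lost with IWP2. The part of these shifts in the changes of SMAD6, BMPR1A and BAMBI was not tested, and in these bulk libraries fewer cells of a type and less RNA per cell cannot be told apart.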

How the data were processed

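RNA from H1 cells was sequenced after TruSeq library preparation. The authors deposited 1 table of FPKM values with 1 column per library. The header names no unit, and it was taken as FPKM because the values are not whole and column sums differ. Columns whose names mark the absence of IWP2 were taken as the DMSO group, with the number in the column name. The submitters' processing notes list BWA, Bowtie, RSEM and hg19, with roles and versions not given in the sources used here. Row coordinates nevertheless match GRCh38. With 1 added to their start, 97.3% of the 58102 rows shared with GENCODE 29 had its exact start and end. RSEM can assign reads that fit several genes, and strand use in counting was not given in the sources used here.

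The 4 libraries were compared with limma 3.58.1 in R 4.3.3 (variance trend, no covariate) on log2(FPKM + 1), after keeping the highest row of each symbol and genes at 1 FPKM in at least 2 libraries, and the procedure was tested on simulated data. Relative depth was the most frequent ratio, rounded to 0.01, of values under 0.3 FPKM. Promoters came from RefSeq (GRCh38.p14). All 9 members were named. From each pathway list the 4 largest called changes and the 2 most abundant genes not called were named, and from each marker list the 3 largest called changes. The members and lists were chosen with earlier results of these data known.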

Additional observations from a re-analysis of the deposited data

How the results depend on the processing

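Counts of calls depended on the filter and on the number of libraries. Without the filter, 384 genes were called (118 higher, 266 lower), none of them a member, and 9 rather than 19 of the other pathway genes. There 28846 genes were tested, and BMPR1A, SMAD6 and BAMBI kept their log2 fold changes of 0.49, -0.81 and 0.46 with adjusted p of 0.135, 0.0788 and 0.148. Without the variance trend 1 member (SMAD6) was called, and BMPR1A (0.49) and BAMBI (0.46) had adjusted p of 0.0700 and 0.0766. Requiring also a log2 fold change of at least 1 left 1065 genes (436 higher, 629 lower) and no member. With 1 library left out, 705 to 1825 genes (215 to 1023 higher, 490 to 889 lower), 0 to 2 members and 13 to 21 other pathway genes were called, fewest genes without IWP2-1. Where 1 library of a group remained, it was assumed to vary like the other group. Leaving out 1 library gave log2 fold changes from 0.37 to 0.61 for BMPR1A, from 0.38 to 0.55 for BAMBI, from -0.93 to -0.68 for SMAD6, from -0.10 to 0.29 for ACVR1, from -0.29 to -0.13 for BMPR2 and from -0.048 to 0.046 for SMAD1. SMAD1 was also above 0 (0.017) after median-ratio scaling. With 1 library left out, the range was from -0.47 to -0.28 for SMAD5 and from -0.47 to -0.34 for SMAD9. The pseudocount of 0.1, the filter of a mean of 5 FPKM and both rescalings kept the 3 member calls. The replicate numbers are not said to mark a shared culture. Mitochondrial genes made up 9.57% of the FPKM in DMSO-1 and 8.95% in IWP2-1, against 6.25% in DMSO-2 and 6.92% in IWP2-2. The libraries thus paired by number in this value, and the reason was not tested. Same-numbered deviations from the group means correlated at 0.20, and a replicate block gave 2244 calls, 22 other pathway genes and the same 3 members. Summing rows per symbol changed no member, since each has 1 row. Other causes of these differences were not tested.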
